A study of Mus musculus with 24 samples.

Results

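App, the amyloid precursor protein gene, was described across the hippocampus (HIP) and entorhinal cortex (EC) of the Ts65Dn mouse model of Down syndrome together with 8 genes of the same biology. These were its relatives Aplp1 and Aplp2, the secretase genes Adam10, Bace1, Bace2 and Psen2, the tau gene Mapt and the apolipoprotein gene Apoe. The 9 genes were listed by symbol for their roles, with earlier results of these data known, and make up 9 of the 55385 genes of the count table. App and Bace2 lie in the segment of mouse chromosome 16 that Ts65Dn mice carry in 3 copies, and the other 7 genes have 2 copies. All 9 passed the filter on low counts in each region.

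RNA-Seq was made from 12 male mice aged 5 to 6 months, 6 Ts65Dn and 6 wild-type (wt) littermates, with a HIP and an EC library from each mouse. The Ts65Dn mice came from a subline of The Jackson Laboratory and, like their littermates, were kept on an F1 B6C3B background. Beside the chromosome 16 segment, the Ts65Dn minichromosome carries a part of mouse chromosome 17 with no counterpart on human chromosome 21, so a difference from wt is one of the whole minichromosome. No gene was manipulated singly in any group, and the counts are of whole tissue pieces.

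App encodes a membrane protein of neurons and other cells that is cut in alternative ways. Cleavage by the alpha-secretase Adam10 falls inside the amyloid-beta sequence and prevents this peptide from forming. Cleavage by the beta-secretase Bace1 followed by gamma-secretase, whose catalytic subunit can be Psen2, releases amyloid-beta. People with trisomy 21 carry an extra copy of APP and commonly develop the amyloid plaques and tau tangles of Alzheimer disease. Aplp1 and Aplp2 resemble App but lack the amyloid-beta sequence, Bace2 is a relative of Bace1 that cuts App mainly within that sequence, tau binds axonal microtubules, and apolipoprotein E is the main lipid carrier made by astrocytes.

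App lies on chr16:84949685-85173766 of GRCm38, minus strand, and Bace2 on chr16:97356742-97442936, plus strand. The sequence upstream of the start was printed for App, Aplp1 and Aplp2, because these 3 related genes shared the direction of their difference between the regions described below while only App is triplicated. The 250 bases before the annotated start are given from RefSeq (GRCm38.p6), on the strand of the gene, with every GC box (GGGCGG, searched on both strands) in capitals.

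App, chr16:85173708-85173957: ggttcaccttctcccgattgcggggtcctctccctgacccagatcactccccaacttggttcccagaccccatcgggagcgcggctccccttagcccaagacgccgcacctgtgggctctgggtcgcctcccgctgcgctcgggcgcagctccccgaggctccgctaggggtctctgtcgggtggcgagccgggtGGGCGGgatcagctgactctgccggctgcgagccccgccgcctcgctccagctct
Aplp1, chr7:30445583-30445832: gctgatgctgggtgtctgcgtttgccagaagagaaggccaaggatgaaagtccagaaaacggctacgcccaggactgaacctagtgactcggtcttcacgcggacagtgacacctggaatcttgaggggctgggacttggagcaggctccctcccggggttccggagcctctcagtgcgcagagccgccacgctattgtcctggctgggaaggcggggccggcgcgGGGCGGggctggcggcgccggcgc
Aplp2, chr9:31211849-31212098: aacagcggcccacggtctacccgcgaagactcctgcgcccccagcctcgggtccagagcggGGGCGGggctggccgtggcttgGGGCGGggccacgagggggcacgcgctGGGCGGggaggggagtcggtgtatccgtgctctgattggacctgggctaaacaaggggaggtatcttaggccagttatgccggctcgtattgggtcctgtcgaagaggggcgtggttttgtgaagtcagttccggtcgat

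The App and Aplp1 windows held 1 GC box each and the Aplp2 window held 3, while 32.7% of 32851 promoter windows of the same length held at least 1. None of the 3 windows held the letters TATAAA on either strand, which 12.4% of all windows held. The share of G and C was 70.8% for App, 66.0% for Aplp1 and 66.4% for Aplp2, against a median of 52.4% over all windows. A match of letters is a description and does not show that a factor binds there. The reference held such a window for 6 of the 9 genes.

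The libraries held 23128589 to 40476492 counts. Depth limited the values of Bace2, with 38 to 222 counts per library, and of Psen2, with 256 to 523, whereas App had 50061 to 135025. The labelled regions matched most of their markers: 6 of 7 hippocampal neuron genes were higher and 6 of 6 neocortical neuron genes were lower in HIP than in EC of wt mice. The other hippocampal neuron gene, Wfs1, went the other way and was lower in HIP of both genotypes. The share of mitochondrial counts was 3.81% to 4.60% in wt HIP, 3.40% to 4.39% in Ts65Dn HIP, 4.51% to 7.06% in wt EC and 3.82% to 5.07% in Ts65Dn EC.

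The libraries labelled Ts65Dn replicate 3, the HIP and EC of the same mouse, did not show the extra dosage that their label implies. Relative to the wt mean, the median level of the triplicated chromosome 16 genes was 1.02 in the HIP library and 1.002 in the EC library of this mouse. In the other 5 Ts65Dn mice the medians were 1.44 to 1.54 in HIP and 1.47 to 1.54 in EC, and in wt mice they were 0.98 to 1.01. The mouse was kept in its labelled group. The fitted App and Bace2 differences between the genotypes, and some other results, are also given without its libraries. The ranks among the triplicated genes and several ratios are given only with this mouse.

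Does the extra copy raise App? App was higher in HIP and EC of Ts65Dn than of wt mice. On the scale of CPM (counts scaled to the size of each library after TMM normalization), wt HIP ranged from 2001 through a median of 2035 to 2087, and Ts65Dn HIP from 1964 through 3207 to 3364. In EC, wt libraries ranged from 2325 through 2469 to 2617 CPM, and Ts65Dn libraries from 2368 through 3569 to 3692. The mouse labelled Ts65Dn replicate 3 gave the lowest value of its group in each region, and the other 5 lay above every wt library, from 3109 in HIP and from 3530 in EC.

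Counts were compared by edgeR's quasi-likelihood test with Benjamini-Hochberg adjustment over all genes, called at 0.05. In HIP, 1.04% of 17355 genes were called (0.542% higher in Ts65Dn), and App was the only called gene of the 9. Its log2 fold change was 0.56 ± 0.11 (SE, 6 against 6 mice, adjusted p = 0.0267), a 1.48-fold difference with a 95% interval of 1.26 to 1.73. In EC, 2.50% of 17049 genes were called (1.15% higher and 1.35% lower), and App was again the only one of the 9, with 0.45 ± 0.09 (adjusted p = 0.0228), 1.37-fold with an interval of 1.19 to 1.57. Both intervals held 1.5-fold, the ratio of 3 copies to 2.

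Without the libraries labelled Ts65Dn replicate 3, App was again the only called gene of the 9 in each region, beside 1.82% of all genes in HIP and 2.79% in EC. Its difference was 0.66 ± 0.04 (adjusted p = 1.68e-06) in HIP and 0.54 ± 0.04 (adjusted p = 1.93e-05) in EC. The groups then did not overlap in either region, as held for 3.54% of all genes in HIP and 4.08% in EC. With this mouse kept, leaving out any other mouse gave an adjusted p between 0.0409 and 0.0682 in HIP and between 0.0281 and 0.0622 in EC, so the call at 0.05 depended on which mouse was left out while the difference stayed between 0.53 and 0.57 in HIP and 0.43 and 0.47 in EC. Removing the GC content and length trend of each library gave 0.59 (adjusted p = 0.0581) in HIP and 0.47 (adjusted p = 0.0191) in EC. The same 12 mice gave both regions, so the comparisons are not independent.

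**Figure D1:**
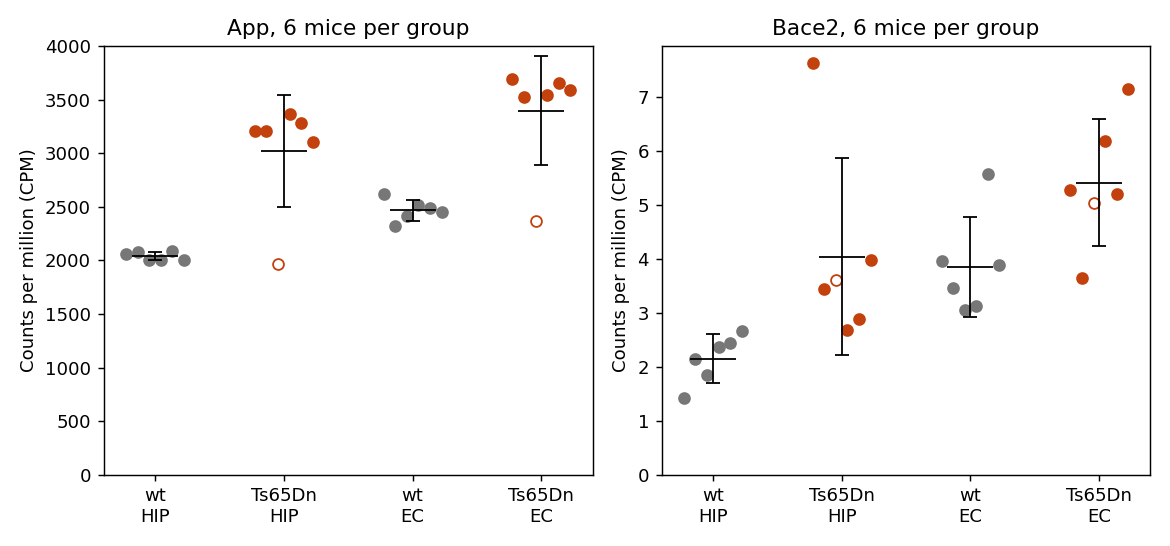
CPM of App (left) and Bace2 (right) in each library, 6 mice per group, with grey points for wt and orange for Ts65Dn, the open circle for the library labelled Ts65Dn replicate 3, and the bar and whiskers for mean ± SD. The 5 filled Ts65Dn points of App lie at 3109 CPM or higher in HIP and 3530 or higher in EC, and the open circles lie at 1964 and 2368, among or below the wt points.

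Bace2 is the other triplicated gene of the set. It was the least abundant, and its difference from wt did not pass the test in either region. In HIP, wt libraries held 1.42 to 2.67 CPM (median 2.25) and Ts65Dn libraries 2.68 to 7.64 (median 3.53). The highest value belonged to Ts65Dn replicate 1, and the groups did not overlap, as held for 1.67% of all genes in HIP, and 0.680% with Ts65Dn higher. The log2 fold change was 0.90 ± 0.24 (95% interval 0.38 to 1.43, edgeR adjusted p = 0.102) and fell to 0.63 ± 0.17 (adjusted p = 0.137) without Ts65Dn replicate 1.

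Ts65Dn replicate 1 also had the highest sum of 7 choroid plexus marker genes, 5159 CPM, in a range of 55.5 to 5159 over all HIP libraries, and the highest sum of 5 meningeal markers, 144 CPM. A wt HIP library with 4930 CPM of choroid plexus markers held 2.14 CPM of Bace2. The part of these tissues in the Bace2 level was not tested. In EC, wt libraries held 3.05 to 5.57 CPM (median 3.67) and Ts65Dn libraries 3.65 to 7.15 (median 5.24), and the groups overlapped. The log2 fold change was 0.49 ± 0.17 (95% interval 0.12 to 0.86, adjusted p = 0.141).

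Both libraries labelled Ts65Dn replicate 3 held more Bace2 than the wt mean, at 1.68 times in HIP and 1.31 times in EC, where App stood at 0.96 times in each. These libraries held 104 and 139 counts of Bace2. Without them Bace2 differed by 0.93 ± 0.26 (adjusted p = 0.0947) in HIP and 0.51 ± 0.18 (adjusted p = 0.146) in EC.

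Among the tested genes of the triplicated chromosome 16 segment, sorted by fold change, App ranked 27 of 90 in HIP and 54 of 87 in EC, and Bace2 ranked 4 and 46. The median fold change of these genes was 1.41 in HIP, with quartiles of 1.34 and 1.49, and 1.42 in EC, with 1.33 and 1.47. App lay within these quartiles in both regions, and Bace2 lay within them in EC and above them in HIP. Of the segment's genes, 42 of 90 were called in HIP and 43 of 87 in EC. These folds, ranks and calls include the mouse labelled Ts65Dn replicate 3.

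The nearest tested protein-coding neighbours of App also had higher values in Ts65Dn libraries. Gabpa, a transcription factor subunit gene 85.9 kb away, differed by 0.32 (adjusted p = 0.175) in HIP and 0.38 (adjusted p = 0.0849) in EC. Cyyr1, 248 kb away on the other side, differed by 0.50 (adjusted p = 0.0569) and 0.32 (adjusted p = 0.157). Neither passed the test. Beside Bace2, the neuronal adhesion gene Dscam rose by 0.53 (adjusted p = 0.0218) in HIP and 0.57 (adjusted p = 0.00978) in EC, and the kinase gene Ripk4 differed by 1.137 (adjusted p = 0.128) and 1.46 (adjusted p = 0.0956). The fitted differences of these 4 neighbours were above 0 in both regions.

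The App relatives with 2 copies did not pass the test. Aplp1 ranged from 1055 to 1228 CPM in wt HIP and from 1060 to 1360 in Ts65Dn HIP, and its log2 fold change was 0.10 ± 0.06 (adjusted p = 0.489). Its EC difference was 0.09 ± 0.07 (adjusted p = 0.493), on 1214 to 1542 CPM in wt and 1273 to 1588 in Ts65Dn libraries. Aplp2 differed by 0.06 ± 0.04 (95% interval -0.02 to 0.15) in HIP and -0.05 ± 0.04 (-0.14 to 0.04) in EC, so its fitted direction differed between the regions. All 4 intervals ended at 0.23 or lower on the log2 scale, under the lower ends of the App intervals, 0.34 in HIP and 0.26 in EC.

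Adam10, the alpha-secretase, had the lowest fitted values among the 9 genes in both regions. In HIP, wt libraries held 119 to 127 CPM (median 121) and Ts65Dn libraries 107 to 130 (median 112), with 4 of 6 Ts65Dn libraries below every wt library. In EC, wt libraries held 122 to 132 CPM (median 125) and Ts65Dn libraries 94.8 to 128 (median 117), with 5 of 6 below every wt library. The mouse labelled Ts65Dn replicate 3 had the lowest value in each region, at 107 and 94.8 CPM.

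The Adam10 differences did not pass the test, with -0.09 ± 0.05 (adjusted p = 0.471) in HIP and -0.15 ± 0.06 (unadjusted p = 0.0335, adjusted p = 0.218) in EC. An unadjusted p under 0.05 was reached by 19.0% of all genes in EC. Without the mouse labelled Ts65Dn replicate 3 the EC value of Adam10 was -0.10 ± 0.05 (adjusted p = 0.276). Adam10 has the lowest GC content of the 9 genes, a fraction of 0.421 of the bases of its longest transcript. With the GC content and length trend removed its differences were -0.02 in HIP and -0.07 in EC.

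Bace1, the beta-secretase, held 96.4 to 109 CPM in wt HIP, 100 to 113 in Ts65Dn HIP, 116 to 126 in wt EC and 114 to 128 in Ts65Dn EC. Its differences were 0.05 ± 0.04 and 0.04 ± 0.04, with intervals of -0.04 to 0.13 in HIP and -0.05 to 0.13 in EC. Exons of Bace1 share 975 bases with Rnf214 on the opposite strand, which had a median of 1313 counts, and the strand setting of the counting is not given in the sources used here. Reads of these genes may therefore not be fully separated. Psen2, of the gamma-secretase, held 11.0 to 12.4 CPM in wt HIP and 11.2 to 13.2 in Ts65Dn HIP, and differed by 0.03 ± 0.06 in HIP and 0.08 ± 0.09 in EC.

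Mapt, encoding tau, differed by 0.04 ± 0.07 in HIP and 0.06 ± 0.06 in EC, on 421 to 530 and 435 to 563 CPM in wt and Ts65Dn HIP. Apoe differed by -0.03 ± 0.06 and -0.06 ± 0.09, and its wt EC libraries ranged from 1415 to 1907 CPM, with Ts65Dn EC at 1218 to 1707. For each of these genes the spread between mice exceeded the difference between the genotypes. The summed level of 7 astrocyte markers was 6524 to 7463 CPM in wt EC and 5030 to 6916 in Ts65Dn EC. None of these 7 was called between the genotypes in EC, and the part of astrocytes in the Apoe values was not tested. Fewer cells of a type and less RNA per cell cannot be told apart in these tissue libraries.

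**Figure D2:**
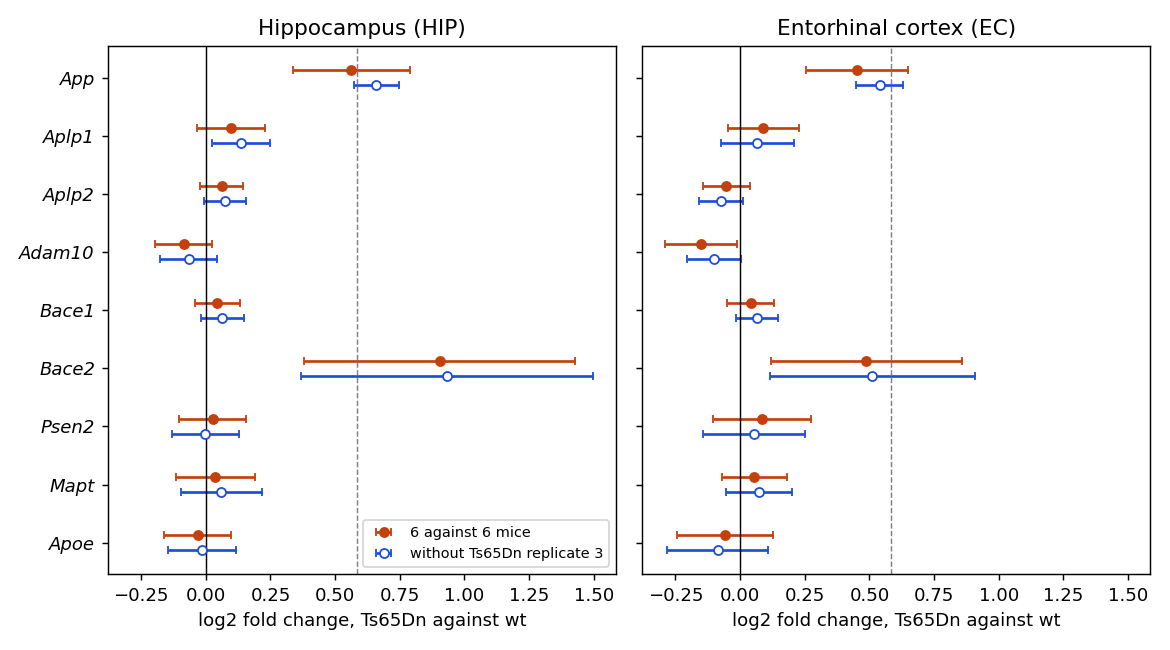
Log2 fold change of Ts65Dn against wt for the 9 genes in HIP (left) and EC (right), from the edgeR fit, with 95% intervals as bars. Filled orange points use 6 against 6 mice and open blue points leave out the mouse labelled Ts65Dn replicate 3. The solid line marks 0 and the dashed line 1.5-fold. The filled App points, at 0.56 and 0.45, lie above those of the 7 genes with 2 copies. In EC the App interval, from 0.26, overlaps that of Psen2, which ends at 0.27.

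The balance of substrate and enzymes within a library was compared next, as the log2 ratio of the CPM of 2 genes, which removes differences in library size. Such a ratio of transcripts is not a measure of enzyme activity. For 9 ratios in both regions, a two-sided exact permutation test over 924 splits of 6 against 6 mice was used, with adjustment over 18 tests and a smallest possible unadjusted p of 0.00216. In all, 15 of the 18 ratios differed at an adjusted p of 0.05. Of the 18, 12 contain App and 2 contain Bace2, so most of this count restates the differences of the triplicated genes. No share over ratios of other genes is given here, for passing the test or for lying above every wt library. Of the 4 ratios between genes with 2 copies, 2 passed, both of them Bace1 to Adam10. The adjustment ran over all 18 ratios, and low p-values of ratios with a triplicated gene make it less strict for these 4. The direction of ratios with 1 triplicated gene was known beforehand. In HIP the Bace1 to Adam10 ratio had an unadjusted exact permutation p of 0.0368, and no adjustment over these 4 alone is given.

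App rose against Adam10 in both regions. In HIP the log2 ratio was 3.98 to 4.13 in wt (median 4.07) and 4.19 to 4.97 in Ts65Dn libraries (median 4.77), and in EC it was 4.19 to 4.35 (median 4.31) and 4.64 to 5.03 (median 4.90). The difference was 0.63 in HIP and 0.60 in EC (exact permutation adjusted p = 0.0130 in each), with 6 of 6 Ts65Dn libraries above every wt library in both regions. As a linear ratio, the median moved from 16.8 to 27.3 App counts per Adam10 count in HIP and from 19.8 to 29.9 in EC.

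The library labelled Ts65Dn replicate 3 was the lowest of its group in both regions, at 4.19 and 4.64, and exceeded wt through its low Adam10, since its App was not raised. With the GC content and length trend removed, the differences were 0.58 and 0.53 (exact permutation adjusted p = 0.00974 in each), with 5 of 6 libraries above every wt library in HIP and 6 of 6 in EC.

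App also rose against Bace1, with a median log2 ratio of 4.31 in wt and 4.89 in Ts65Dn HIP and of 4.37 and 4.84 in EC. The differences were 0.50 (exact permutation adjusted p = 0.0195) and 0.40 (exact permutation adjusted p = 0.0173), in 5 of 6 Ts65Dn libraries in each region. Against its 2 relatives, App rose by 0.44 over Aplp1 (exact permutation adjusted p = 0.0173) and 0.48 over Aplp2 (exact permutation adjusted p = 0.0213) in HIP. In EC it rose by 0.49 over Aplp2 (exact permutation adjusted p = 0.0227). The 0.35 over Aplp1 in EC did not pass (exact permutation adjusted p = 0.0536), and without the mouse labelled Ts65Dn replicate 3 it was 0.47 (exact permutation adjusted p = 0.0030).

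Among the enzymes alone, Bace2 rose against Bace1 by 0.78 in HIP (exact permutation adjusted p = 0.0173) and by 0.44 in EC (exact permutation adjusted p = 0.0494). The EC call was lost without the mouse labelled Ts65Dn replicate 3, at 0.43 (exact permutation adjusted p = 0.0731), and was kept in 2 of 12 tests that each left out a mouse, with an adjusted p up to 0.0987 without Ts65Dn replicate 6. Bace1 rose against Adam10, neither of them triplicated, by 0.20 in EC, in 6 of 6 Ts65Dn libraries (exact permutation adjusted p = 0.0130). In HIP this ratio rose by 0.13, in 4 of 6 libraries (exact permutation adjusted p = 0.0473), and was not called without the mouse labelled Ts65Dn replicate 3 (exact permutation adjusted p = 0.0731). That HIP call was kept in 3 of 12 tests that left out a mouse, with an adjusted p up to 0.0883 without wt replicate 2.

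With the GC content and length trend of each library removed, the difference of the Bace1 to Adam10 ratio was 0.05 in HIP (exact permutation adjusted p = 0.438) and 0.08 in EC (exact permutation adjusted p = 0.0519), so neither call held. Psen2 to Bace1 differed by -0.02 and 0.04 (exact permutation adjusted p = 0.792 and 0.727). Mapt fell against App by 0.50 in HIP and 0.38 in EC on the log2 scale, and Apoe fell against App by 0.57 and 0.50, each in 5 of 6 Ts65Dn libraries. These 4 differences passed the exact permutation test, with adjusted p = 0.0173 for 3 of them and 0.0270 for Apoe in EC. The Apoe call in EC was kept in 8 of 12 tests that left out a mouse, with an adjusted p up to 0.0539 without wt replicate 2.

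**Figure D3:**
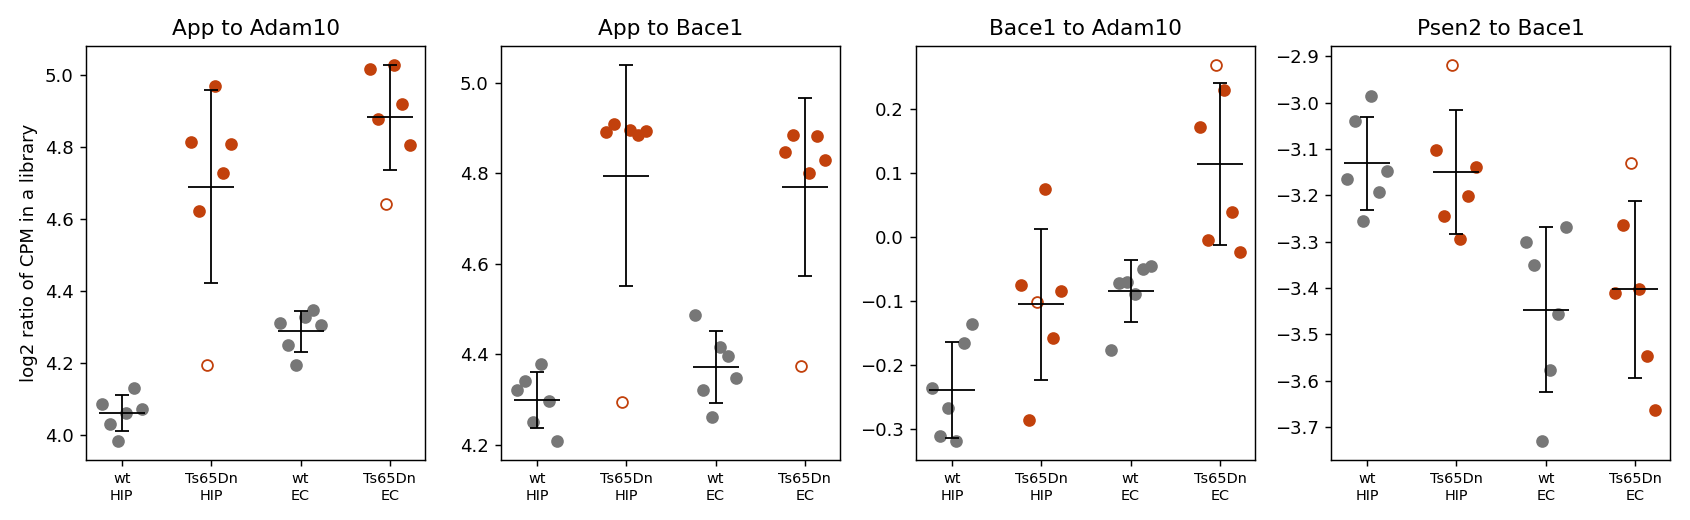
Log2 ratio of the CPM of 2 genes in each library, for 4 of the 9 ratios, with grey points for wt, orange for Ts65Dn, an open circle for the library labelled Ts65Dn replicate 3, and mean ± SD. App to Adam10 lies above every wt library in 6 of 6 Ts65Dn libraries of both regions, and Psen2 to Bace1 overlaps between the genotypes.

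How do these genes differ between HIP and EC? Of the 9 genes, 6 were lower in HIP than in EC of the same mice, in wt and in Ts65Dn alike. A difference between the regions was common, since 58.6% of 18109 genes were called in wt and 56.5% in Ts65Dn, where 30.3% and 29.5% were called higher and 28.3% and 27.0% lower in HIP. The 24 libraries were fitted together with a term for each mouse. Aplp2 had the largest difference of the App family in wt mice, at -0.36 ± 0.04 (edgeR adjusted p = 1.76e-06), and differed by -0.25 ± 0.04 in Ts65Dn mice (adjusted p = 8.09e-05), and it was lower in HIP in 6 of 6 mice of each genotype.

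App was lower in HIP by -0.27 ± 0.04 in wt (adjusted p = 2.57e-05) and -0.18 ± 0.04 in Ts65Dn mice (adjusted p = 0.0015), in 6 of 6 mice of each. Aplp1 differed by -0.25 ± 0.06 in both genotypes, in 6 of 6 wt and 5 of 6 Ts65Dn mice. Bace1 differed by -0.20 ± 0.03 in both, in 6 of 6 mice each. App, Aplp2, Bace1 and Bace2 did not overlap between the regions in wt, where 33.4% of all genes did not, and Aplp2 and Bace1 did not in Ts65Dn, where 26.4% of all genes did not.

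Bace2 had the largest fitted difference of the 9 genes, at -0.83 ± 0.20 in wt (adjusted p = 0.00207) and -0.47 ± 0.19 in Ts65Dn mice (adjusted p = 0.0452). The Ts65Dn call was kept in 5 of the 12 fits that left out a mouse, with an adjusted p up to 0.152 without Ts65Dn replicate 4. Without the mouse labelled Ts65Dn replicate 3 it was -0.46 ± 0.21 (adjusted p = 0.0829). Mapt differed by -0.12 ± 0.04 in wt (adjusted p = 0.0208) and -0.15 ± 0.04 in Ts65Dn mice (adjusted p = 0.00693). Its wt call was kept in 9 of 12 such fits, with an adjusted p up to 0.0858 without wt replicate 4.

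Adam10, Psen2 and Apoe were not called between the regions. Adam10 differed by -0.05 ± 0.04 in wt and 0.02 ± 0.04 in Ts65Dn mice, but with the GC content and length trend removed it was lower in HIP by -0.18 (adjusted p = 0.000326) and -0.13 (adjusted p = 0.00574). Psen2 differed by 0.11 ± 0.07 and 0.05 ± 0.07, and Apoe by -0.14 ± 0.08 and -0.11 ± 0.08. Marker sums of cell types differed between the regions. The 6 oligodendrocyte markers summed to 6698 to 10521 CPM in HIP and 1386 to 2859 in EC libraries, and all 6 were called higher in HIP of each genotype. The 8 neuronal markers summed to 6730 to 8633 in HIP and 8760 to 10352 in EC libraries. Of these 8, 4 were called lower and 0 higher in HIP of wt mice, and 3 lower and 1 higher in Ts65Dn mice. The part of these cell types in the differences of the 9 genes was not tested.

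A genotype by region interaction was called for none of the 9 genes and for 0 of 18109 genes by edgeR, with 742 genes (4.10%) at an unadjusted p under 0.05, and DESeq2 also called 0, with 503 genes at that level. The smallest unadjusted p among the 9 were 0.0726 for Aplp2 and 0.101 for App, with interaction estimates of 0.11 ± 0.06 and 0.10 ± 0.06. The interval for App ran from -0.02 to 0.22. Without the mouse labelled Ts65Dn replicate 3 the unadjusted p were 0.00857 for Aplp2 and 0.0417 for App (edgeR adjusted p = 0.756 and 0.762). The genotype difference of App was not shown to differ between the regions.

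**Figure D4:**
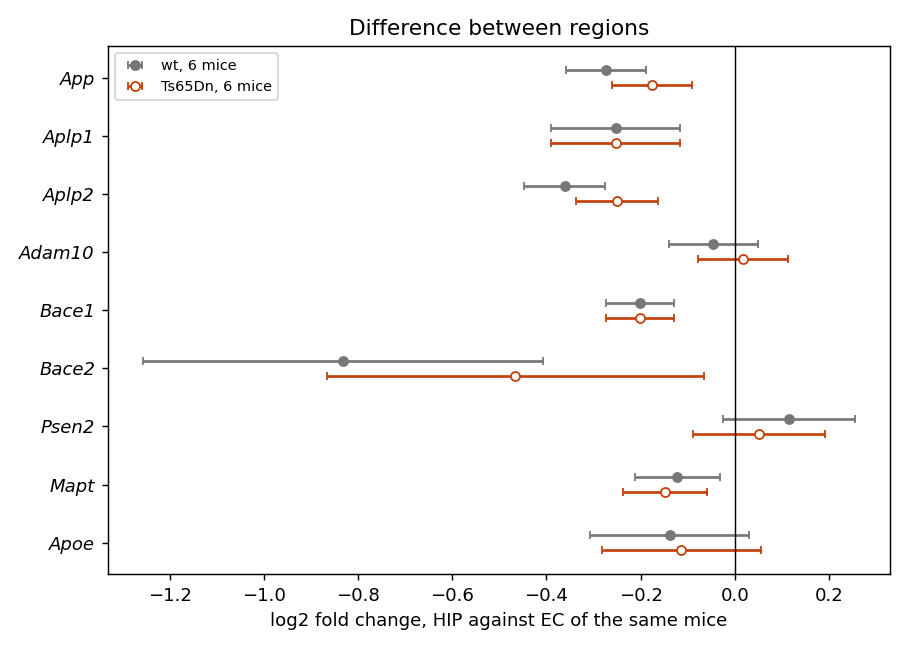
Log2 fold change of HIP against EC in the same mice for the 9 genes, in wt (filled grey) and Ts65Dn (open orange), with 95% intervals. The points of App, Aplp1, Aplp2, Bace1, Bace2 and Mapt lie below 0 with intervals that do not reach it, and those of Adam10, Psen2 and Apoe have intervals that include 0.

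The levels of the genes were ordered by CPM per kilobase of annotated exon, so the order depends on the exon length given to each gene. In wt HIP the medians were 649 for Apoe, 376 for Aplp1, 157 for App, 105 for Aplp2, 61.8 for Mapt, 24.6 for Adam10, 16.4 for Bace1, 2.73 for Psen2 and 0.286 for Bace2. The order was the same in all 4 groups. The ranges of neighbouring genes did not overlap in any group, except for Adam10 and Bace1 in Ts65Dn EC, at 19.3 to 26.2 and 17.99 to 20.2 CPM per kilobase.

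On this scale Aplp1 exceeded App even with an extra App copy. The medians were 404 against 247 CPM per kilobase in Ts65Dn HIP and 498 against 275 in Ts65Dn EC. This order rests on the exon lengths used, 12996 bases for App and 3017 for Aplp1. It was the same with the longest transcripts, 8167 and 2472 bases. Before division by length App was the higher, with a median of 3207 against 1220 CPM in Ts65Dn HIP. The order with a shorter App transcript was not tested. The triplicated Bace2 remained the lowest of the 9, at a median of 0.447 in Ts65Dn HIP and 0.664 in Ts65Dn EC, where Bace1 stood at 16.9 and 19.7.

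The spread between libraries also differed among the genes. In wt HIP the coefficient of variation was 1.93% for App and 21.2% for Bace2, and in Ts65Dn HIP it was 17.4% and 45.2%. Bace2 held only 38 to 90 counts per library in wt HIP and 62 to 218 in Ts65Dn HIP. The part of counting noise in the Bace2 spread was not measured. The larger App value in Ts65Dn HIP came with the single library at 1964 CPM. For Aplp2 the coefficient of variation was 3.44% in wt HIP and 2.70% in Ts65Dn HIP.

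**Figure D5:**
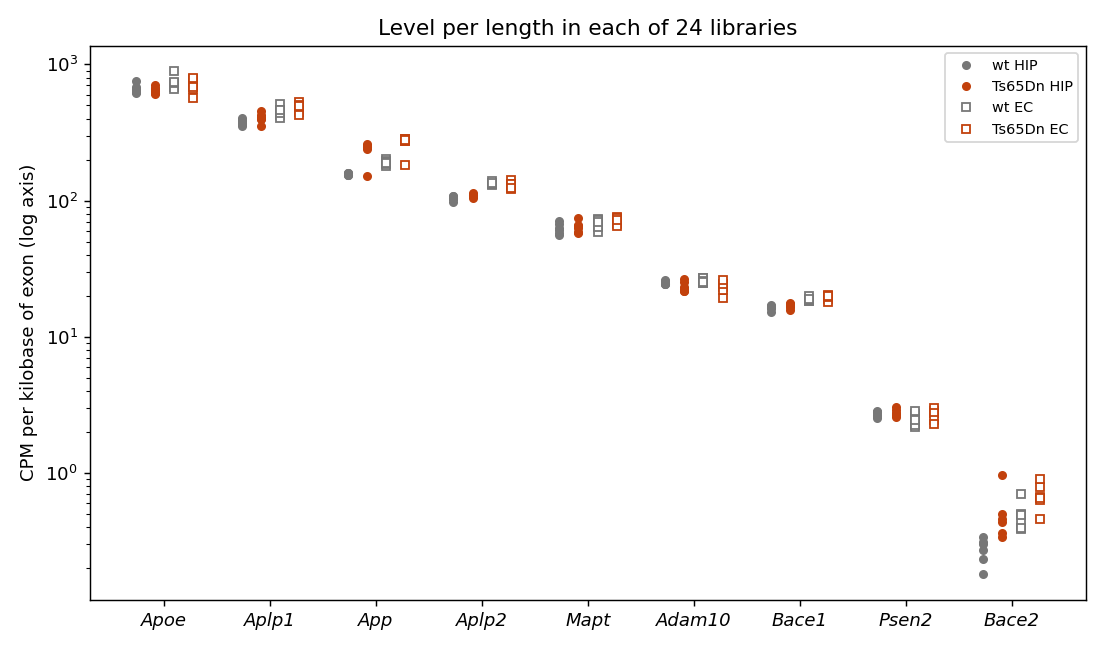
CPM per kilobase of exon on a log axis for the 9 genes in each of the 24 libraries, with circles for HIP, squares for EC, grey for wt and orange for Ts65Dn. Apoe is the highest, with a median of 649 in wt HIP, and Bace2 the lowest, with 0.286.

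The wider pathway was taken as 82 genes in 9 roles around App, tau and Apoe, with the 9 genes included, and all 82 were tested. In HIP, 2 of 82 were called, both higher: App and Dyrk1a, a triplicated kinase that phosphorylates tau. These counts stand beside 1.04% of all genes called in HIP and 0.542% called higher. In EC, 5 were called higher and 2 lower, beside 1.15% and 1.35% of all genes. The median log2 fold change of the 82 genes was 0.04 in HIP and 0.01 in EC, beside 0.00 over all genes tested in each region.

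Dyrk1a rose by 0.45 ± 0.09 in HIP (edgeR adjusted p = 0.0292) and 0.38 ± 0.09 in EC (adjusted p = 0.0416). Wt HIP ranged from 90.3 through 92.9 to 94.2 CPM and Ts65Dn HIP from 89.6 through 129 to 144, so that the groups overlapped. Without the mouse labelled Ts65Dn replicate 3 its differences were 0.53 and 0.46 (adjusted p = 1.19e-05 and 3.82e-05). The 12 fits that each left out a mouse include that fit, and the call was kept in 2 of them in HIP and 1 in EC. In EC the call was kept only without this mouse.

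None of 7 alpha-secretase and shedding genes and none of 7 gamma-secretase genes was called in either region by edgeR, with 2 shedding genes at an unadjusted p under 0.05 in each region and 0 gamma-secretase genes, and DESeq2 called 0 of either role. That level was reached by 14.8% of all genes in HIP and 19.0% in EC. Of 8 beta-secretase and trafficking genes, Rtn4, a reticulon that can bind Bace1, fell in EC by 0.24 on the log2 scale (SE 0.06, adjusted p = 0.0447), from a median of 1099 to 927 CPM. Of 17 adaptor and sorting genes, Mapk8ip1, a scaffold that binds the App tail, rose in EC by 0.17 ± 0.04 (adjusted p = 0.0348).

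Of 12 genes for Apoe lipidation, receptors and clearance, the lipid transporter Abca7 rose in EC by 0.40 ± 0.06 (adjusted p = 0.00726), from 14.0 to 16.5 CPM in wt to 18.7 to 22.1 in Ts65Dn libraries, without overlap, as held for 2.46% of all genes in EC. Vldlr, a receptor for Apoe, fell in EC by 0.21 on the log2 scale (SE 0.05, adjusted p = 0.0316). Of 17 tau kinase and phosphatase genes, Mark4 rose in EC by 0.38 ± 0.09 (adjusted p = 0.0408) beside Dyrk1a. None of 5 amyloid-beta degradation genes and none of 6 genes of microtubule-associated proteins was called by edgeR, with 1 gene of each role at an unadjusted p under 0.05 in each region. DESeq2 called 1 of them, Map6, in EC.

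Several of these EC calls were lost under other settings. Of the 12 fits that each left out a mouse, Abca7 was called in 12, Vldlr in 4 (adjusted p up to 0.0857), and Mapk8ip1 (up to 0.0920), Mark4 (up to 0.0964) and Rtn4 (up to 0.110) in 3 each. Without the mouse labelled Ts65Dn replicate 3, Rtn4 (adjusted p = 0.0626) and Mark4 (adjusted p = 0.0610) were no longer called, and in HIP Mme, the amyloid-beta degrading neprilysin, was called lower (-0.56 ± 0.11, adjusted p = 0.0214). With the GC content and length trend removed, none of Abca7 (0.29, adjusted p = 0.0761), Mapk8ip1 (0.05, adjusted p = 0.583), Mark4 (0.24, adjusted p = 0.213), Rtn4 (-0.22, adjusted p = 0.0841), Vldlr (-0.16, adjusted p = 0.0725) or Dyrk1a (0.37, adjusted p = 0.0520) was called in EC. App was called there, with an adjusted p of 0.0191.

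Between the regions, 17 of the 82 genes were higher and 41 lower in HIP of wt mice, and 22 were higher and 39 lower in Ts65Dn mice, with medians of -0.13 and -0.11 beside 0.01 over all genes in each. Over all genes, 30.3% were called higher and 28.3% lower in wt, and 29.5% and 27.0% in Ts65Dn mice. The largest difference was that of Sorcs1, a sorting receptor that can bind App, at -1.63 ± 0.07 in wt, from a mean of 56.3 CPM in EC to 18.2 in HIP. Tspan15, a partner of Adam10, was higher in HIP by 0.98 ± 0.06, and Tspan14, another partner, lower by -0.46 ± 0.05. Of the gamma-secretase genes, Aph1a was higher by 0.39 ± 0.07 and Aph1b by 0.34 ± 0.07, and Ncstn lower by -0.26 ± 0.04, all in wt mice.

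Among the other roles, Rtn1, a reticulon that can bind Bace1, was lower in wt HIP by -0.52 ± 0.04, and Lpl, a lipoprotein lipase, was higher by 1.48 ± 0.13. Called lower in HIP were 28.3% of all genes in wt and 27.0% in Ts65Dn mice. The tau kinase and phosphatase genes had the most such calls of the roles, 13 of 17 in wt and 12 of 17 in Ts65Dn mice. Of these, Ppp2r2b differed by -0.93 ± 0.05 and Cdk5r2, an activator of Cdk5, by -0.90 ± 0.09 in wt. Of 6 microtubule-associated protein genes, 4 were lower in wt HIP, among them Map6 at -0.63 ± 0.05, and 1, Map4, was higher by 0.62 ± 0.05.

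Over the 24 libraries, the 5 genes whose log2 CPM was most like that of App were Cct8, Wrb, Dyrk1a, Ttc3 and Gart, with Pearson's r between 0.96 and 0.97. All 5 lie in the triplicated chromosome 16 segment. The libraries share the groups, the regions and the mouse labelled Ts65Dn replicate 3, so these correlations describe shared patterns and carry no test. For Bace2 the 5 were Ube2j2, Tufm, Nub1, Ppp1r3f and H13, with r between 0.78 and 0.82, and none lies in the segment.

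The 3 genes most like Aplp1 were Ppp2r1a, Gnb2 and Slc17a7 (r 0.96 to 0.97), those most like Aplp2 were Ppme1, Aars and Extl3 (r 0.97), and those most like Bace1 were Gnao1, Cacna1b and Socs7 (r 0.95 to 0.96). Slc17a7 encodes the vesicular glutamate transporter of excitatory neurons. For Adam10 they were Tnks2, Dek and Bcap29 (r 0.83 to 0.89), for Psen2 Twist1, 4931440P22Rik and Itga10 (r 0.75 to 0.76), and for Apoe Mlc1, Pcdhgb4 and Vtn (r 0.76 to 0.81). The 3 genes most like Mapt, Krt20, A830036E02Rik and Nme1 (r 0.84 to 0.86), all lie on chromosome 11, as Mapt does. Krt20 did not pass the filter on low counts in the HIP genotype comparison. Among the 9 genes themselves, the highest r were 0.82 for Aplp2 with Bace1 and 0.78 for Aplp1 with Aplp2, and the lowest was -0.56 for Adam10 with Psen2.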

How the data were processed

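The analysis covered RNA-Seq libraries from 2 brain regions, HIP and EC, of 6 Ts65Dn and 6 wt male mice, and group, region, mouse and replicate number were taken from the labels. The authors aligned single-end reads to GRCm38 (Ensembl annotation) with Hisat2 and deposited raw read counts per gene from HTSeq-count, not normalized; their versions and strand setting are not given in the sources used here, and bcl2fastq 2.17.1.14 is named in the submitters' processing notes. The labels describe a stranded poly-A kit and the study's methods a total RNA kit with ribosomal depletion, so the selection of RNA is uncertain. Deposited tables of the authors' own comparisons, holding mean normalized counts, log2 fold changes, ratios, scores and p-values, were not used. Of the counted genes, 99.6% matched GENCODE vM21, 0 rows named no gene and 0 columns belonged to no sample.

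Counts were filtered (filterByExpr), normalized by TMM and tested with edgeR 4.0.16 in R 4.3.3 (quasi-likelihood, Benjamini-Hochberg, 0.05). Ts65Dn was compared with wt within each region, and HIP with EC in 1 fit of 24 libraries with a term for each mouse, because a HIP and an EC library came from the same mouse: deviations from the group means correlated in all 12 pairs (0.178 to 0.426). Replicate numbers shared by the genotypes came from labels that tie no mice together. Log2 CPM used a prior count of 2. Ratios were tested with an exact permutation test in Python 3.11.15. No 2 libraries of a group agreed within sampling noise. Scripts were tested on simulated data.

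Members and lists were chosen with earlier results of these data known. Named were the 9 members, pathway genes called in a genotype comparison, up to 3 called genes per role with the largest difference between regions, nearest tested neighbours, and the genes of highest Pearson's r. Mme and the exceptions were named after their values were seen, as were the contrasts between pathway genes. Alternatives were DESeq2 1.42.0, its size factors, no filter, at least 10 counts in every sample, a threshold of 0.1, a replicate block or none, leaving out each mouse, a prior count of 0.5, the longest transcript and, chosen after seeing the data, removal of the GC content and length trend (splines with 5 degrees of freedom).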

Additional observations from a re-analysis of the deposited data

Results flagged for a closer look

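Of 36 groups of 6 libraries tested (9 genes in 4 groups), 5 had a library far from the other 5, judged by its gap to the nearest library as a share of the range (Dixon's critical value 0.625). Chance flags about 1 in 20 groups. App was lowest in the library labelled Ts65Dn replicate 3 in both regions, at 1964 CPM in HIP and 2368 CPM in EC, and the triplicated genes of these libraries had median levels of 1.02 and 1.002 relative to wt. Bace2 was highest in Ts65Dn HIP replicate 1, at 7.64 CPM, the library with the most choroid plexus and meningeal marker counts. Bace2 was also highest in wt EC replicate 5, at 5.57 CPM, and without that mouse the EC difference was 0.63 (edgeR adjusted p = 0.0667). Apoe was highest in wt EC replicate 2, at 1907 CPM.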

How the results depend on the processing

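Of the genotype comparisons, App kept its direction under every alternative run, between 0.43 and 0.66 on the log2 scale. Its call was lost with a replicate block, in which mice of the same number were compared (0.54, adjusted p = 0.101 in HIP; 0.44, adjusted p = 0.0665 in EC), and in HIP with the GC content and length trend removed (0.59). Leaving out 1 mouse at a time gave 0.53 to 0.66 in HIP and 0.43 to 0.54 in EC, called in 5 and 8 of 12 fits, with 0 to 1 of the 9 genes called in each region. DESeq2 also called Bace2 in HIP (0.90, adjusted p = 0.0159), so that 2 genes of the 9 were called there. With the GC trend removed 0 of the 9 were called in HIP, and with the block 0 in either region. The genotypes share only replicate numbers: deviations of same-numbered mice correlated above 0.1 in 2 of 6 pairs in HIP and 1 of 6 in EC, and 1 of 6 mice in each region correlated best with its own number.

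The counts of called genes, 181 in HIP and 426 in EC, were 662 and 1141 with DESeq2, 389 and 1025 at a threshold of 0.1, 57 and 127 with the GC trend removed, 29 and 36 with the replicate block, and 275 in EC without a filter. Leaving out 1 mouse gave 54 (Ts65Dn replicate 6) to 318 (Ts65Dn replicate 3) calls in HIP and 90 (Ts65Dn replicate 1) to 685 (Ts65Dn replicate 6) in EC. The interaction gave 37 calls without a filter. Of the 82 pathway genes, DESeq2 called 6 in HIP and 11 in EC, where edgeR called 2 and 7. Without the term for each mouse, 3 of the 9 genes were called between the regions in Ts65Dn mice, and App, Bace2 and Mapt were no longer called. With the replicate block, 0 of 18 ratios passed, but 6 pairs allow no unadjusted p under 0.03125, reached by 9 ratios (adjusted p = 0.0625), so this says little of stability. The causes were not tested.

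Some fitted differences changed sign. With the GC content and length trend removed, Adam10 between the regions in Ts65Dn mice moved from 0.02, not called, to -0.13, called (adjusted p = 0.00574). The others under that setting were Aplp1 (-0.0080 in HIP and -0.038 in EC), Mapt (-0.0061 and -0.0022), Psen2 (-0.038 in HIP), Psen2 to Bace1 (-0.0045 in EC) and the interaction of Bace1 (0.015). That interaction was 0.0031 with DESeq2, 0.0035 with its size factors and 0.0026 with at least 10 counts in every sample, and that of Aplp1 was -0.0099 without a filter. Leaving out 1 mouse turned the sign within these ranges: in HIP Psen2 (-0.0022 to 0.050), Mapt (-0.0094 to 0.075) and Apoe (-0.054 to 0.014), in EC Apoe (-0.097 to 0.0067), between regions in Ts65Dn mice Adam10 (-0.014 to 0.064), for the interaction Aplp1 (-0.054 to 0.066), Bace1 (-0.018 to 0.014) and Apoe (-0.043 to 0.091), and for Psen2 to Bace1 -0.065 to 0.010 in HIP and -0.013 to 0.096 in EC. None of these values was called, other than Adam10 at -0.13. Low counts limited Bace2 and Psen2.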
